A study of Drosophila melanogaster with 3 samples.

Results

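The Enhancer of split complex of Drosophila melanogaster is a run of neighbouring genes on chromosome arm 3R that respond to Notch signalling. Binding of the CG7368 protein was examined at 10 of them, chosen by name, out of 13986 protein-coding genes and 18358 genes in all. The 10 comprise 7 genes for basic helix-loop-helix (bHLH) proteins and 3 for Bearded family (BFM) proteins. Regions were taken where the summit, the position of strongest signal within a region, lay in the gene or within 2 kb of it in the Ensembl annotation (dm6). These genes lie close together, so a summit can belong to several of them and the members are not independent of each other.

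Chromatin immunoprecipitation followed by sequencing was done in whole prepupae, of pooled male and female animals. The animals came from a transgenic line that stably expressed the CG7368 protein with green fluorescent protein fused to its C-terminal end, and an antibody against green fluorescent protein was used. All 3 biological replicates carried this transgene and formed a single group, and their age was unknown. A control experiment that the labels point to is not analysed here. Whole animals mix many tissues, so the cells in which a region was bound are not known from these data.

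When a neighbouring cell presents ligand, the Notch receptor is cleaved and its intracellular part joins the DNA-binding protein Su(H) to switch on target genes, of which the E(spl) genes are the classic set. The E(spl) bHLH proteins are repressors that bind the corepressor Groucho and keep cells from adopting neural and other fates. The BFM proteins bind the ubiquitin ligase Neuralized and lower its promotion of ligand activity. In prepupae the pathway patterns sense organs, wing veins and the eye in the imaginal discs.

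Of the 10 members, 6 held at least 1 region of the authors' optimal list, the regions that the authors kept after comparing ranks between replicates. As deposited, the 5246 optimal regions are the 5246 of highest signal in the pooled list, so here optimal and not retained differ by a limit on pooled signal. In all, 29.4% of protein-coding genes held one by the same rule. Among the 6551 protein-coding genes of at most 2 kb, a limit set after seeing the data because the members are 676 to 1305 bp long, the share was 18.8%. The 6 members became 3 when each summit was assigned only to its nearest gene of any kind. The optimal regions at the members numbered 9, and none of them belonged to more than 1 member. E(spl)m3-HLH had 3, E(spl)mdelta-HLH had 2, and E(spl)malpha-BFM, E(spl)m2-BFM, E(spl)m7-HLH and E(spl)m8-HLH had 1 each. E(spl)mgamma-HLH, E(spl)mbeta-HLH, E(spl)m4-BFM and E(spl)m5-HLH had none.

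The 9 summits are shown as 101 bp of the plus strand of dm6, read from the RefSeq genome, because they are all the optimal summits at the members. Each summit is the middle base, and capitals mark runs of at least 6 A or T bases.
Distal region upstream of E(spl)mdelta-HLH, chr3R:25996572-25996672: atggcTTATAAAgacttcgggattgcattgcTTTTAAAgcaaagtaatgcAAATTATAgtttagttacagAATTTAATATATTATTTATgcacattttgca
Proximal region upstream of E(spl)mdelta-HLH, chr3R:25997236-25997336: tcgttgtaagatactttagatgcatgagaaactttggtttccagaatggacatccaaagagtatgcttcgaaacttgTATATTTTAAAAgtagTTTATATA
Region upstream of E(spl)malpha-BFM, chr3R:26009041-26009141: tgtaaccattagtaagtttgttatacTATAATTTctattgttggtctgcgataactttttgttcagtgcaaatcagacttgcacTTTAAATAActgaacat
Region upstream of E(spl)m2-BFM, chr3R:26018005-26018105: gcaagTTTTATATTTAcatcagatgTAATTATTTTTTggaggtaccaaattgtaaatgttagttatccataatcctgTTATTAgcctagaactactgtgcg
Distal region upstream of E(spl)m3-HLH, chr3R:26020424-26020524: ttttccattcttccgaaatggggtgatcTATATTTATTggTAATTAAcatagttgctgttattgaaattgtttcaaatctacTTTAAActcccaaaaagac
Middle region upstream of E(spl)m3-HLH, chr3R:26021254-26021354: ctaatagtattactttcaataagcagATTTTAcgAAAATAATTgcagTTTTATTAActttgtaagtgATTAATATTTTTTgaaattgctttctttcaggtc
Proximal region upstream of E(spl)m3-HLH, chr3R:26021455-26021555: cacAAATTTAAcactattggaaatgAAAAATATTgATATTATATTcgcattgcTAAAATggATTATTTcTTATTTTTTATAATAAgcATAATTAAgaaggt
Region upstream of E(spl)m7-HLH, chr3R:26036633-26036733: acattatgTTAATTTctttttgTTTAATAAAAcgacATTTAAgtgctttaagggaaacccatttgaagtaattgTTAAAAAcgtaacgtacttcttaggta
Region in gro, downstream of E(spl)m8-HLH, chr3R:26042468-26042568: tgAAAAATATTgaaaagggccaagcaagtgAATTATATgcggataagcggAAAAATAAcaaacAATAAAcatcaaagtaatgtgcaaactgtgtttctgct

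All 9 windows held such runs, as did 90.0% of the windows of all optimal regions. The longest, of 19 bases, was in the distal window of E(spl)mdelta-HLH, and the proximal window of E(spl)m3-HLH had the most bases in runs, 64 of 101. The window upstream of E(spl)malpha-BFM had the fewest, with 17. The median window at the members had 30 bases in runs, and over all 5246 optimal regions the median was 23.

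**Figure D1:**
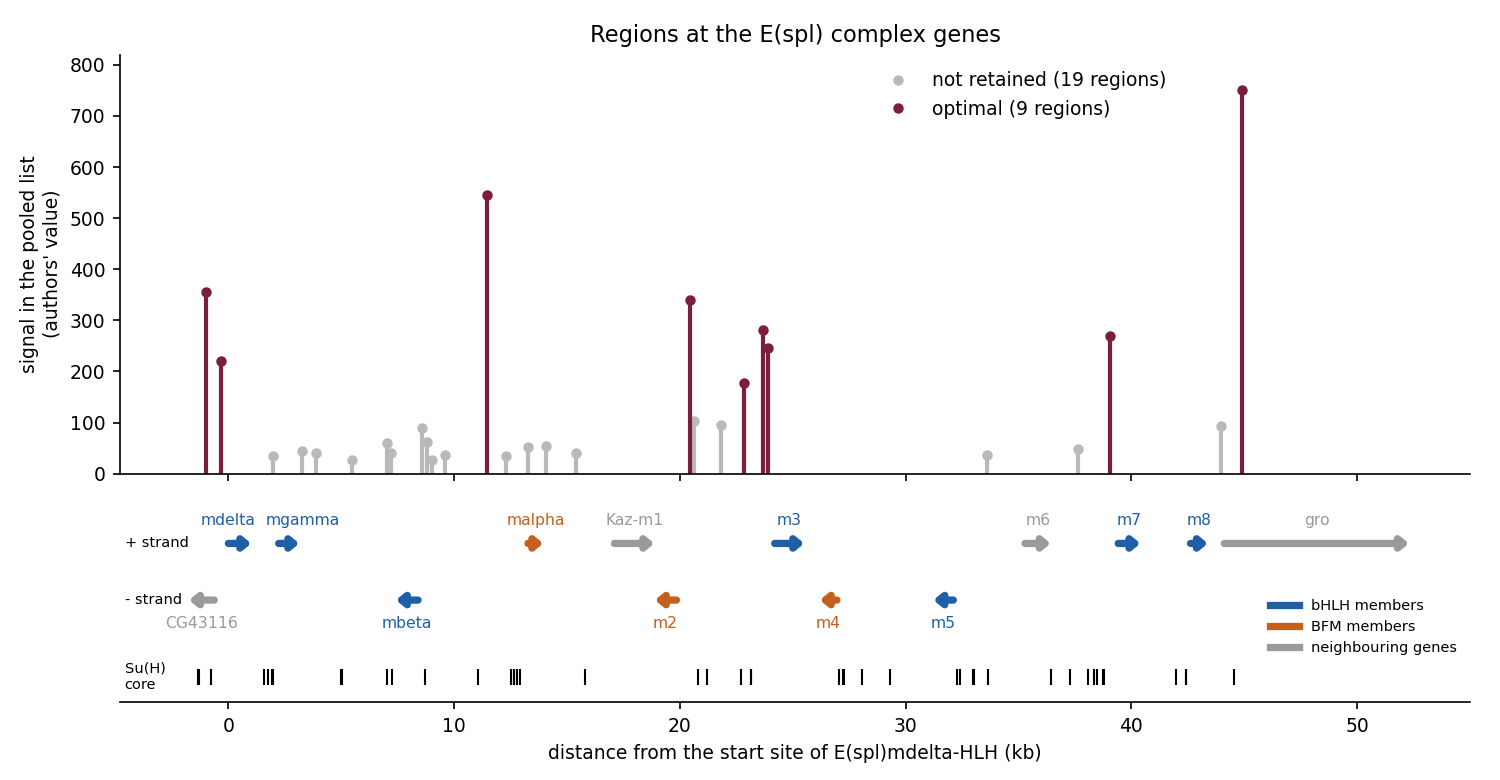
The upper panel plots the signal in the pooled list (authors' value) of each region at the members against the distance of its summit from the start site of E(spl)mdelta-HLH in kb, for 9 optimal and 19 not retained regions. The lower panel draws the genes by strand, with bHLH members in blue, BFM members in orange and neighbours in grey, and ticks for 45 Su(H) core words. No optimal summit lies over the body of any member, or in the stretch that holds E(spl)m4-BFM, E(spl)m5-HLH and the neighbouring E(spl)m6-BFM.

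The region of highest signal at the members lay at 26042360 to 26042648 of 3R, where the pooled signal was 751 (rank 125). Its summit was 2278 bp downstream of the start site of E(spl)m8-HLH, the bHLH gene altered in the dominant Enhancer of split mutation. It lay in an intron of gro, which encodes Groucho itself, 123 bp from a gro transcription start site (TSS), so the members' rule credits to E(spl)m8-HLH a region that is nearer to gro. The replicates placed this region at rank 199, 138 and 90, with signals of 147, 289 and 315. It was the best-placed region of the complex in every replicate.

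E(spl)malpha-BFM had the next highest region, at 26008971 to 26009232, 1802 bp upstream of its TSS and with a signal of 546 and rank 286. Its rank in replicates 1, 2 and 3 was 315, 279 and 373, with signals of 125, 218 and 183. The replicate summits lay within 9 bp of each other, the smallest spread of the 9 optimal regions. The nearest TSS of any gene was that of E(spl)malpha-BFM, although the summit fell outside a window of 1 kb.

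E(spl)mdelta-HLH, whose regulatory DNA is widely used to mark the R4 photoreceptor of the eye, had a pair of upstream regions. The distal one, at 25996503 to 25996694, had a signal of 356, and ranked 903, 994 and 583 in replicates 1, 2 and 3. The proximal one, at 25997268 to 25997389, had a signal of 220 and ranked 1619, 1459 and 2003. These summits were 999 and 335 bp upstream of the E(spl)mdelta-HLH TSS, but nearer to the TSS of CG43116, which is transcribed away from it. The distal summit lay in an intron of CG43116, 374 bp from its TSS, and the proximal summit lay 290 bp from that TSS, so neither can be assigned to E(spl)mdelta-HLH alone.

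E(spl)m2-BFM had a region at 26017958 to 26018131 with a signal of 340, 585 bp upstream of its TSS and within an exon of lncRNA:CR43643. It ranked 605, 908 and 1039 in replicates 1, 2 and 3. A pair of regions further upstream fell just below the optimal list, whose last rank is 5246. At 785 bp from the TSS a region had rank 5366 and a signal of 103, and at 1976 bp another had rank 5881 and a signal of 95.2. Kaz-m1, the neighbouring gene for a Kazal-type protease inhibitor, has the strongest of these summits within 2 kb of its end.

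E(spl)m3-HLH was the member with the most optimal regions. Their signals were 177, 282 and 246 at 1349, 519 and 318 bp upstream of its TSS. The middle region, at 26021096 to 26021511, ranked 1010, 1240 and 959 in replicates 1, 2 and 3. The proximal region, at 26021297 to 26021712, overlaps it, and ranked 4063, 1837 and 959. In replicate 3 a single region covered both, so the middle and proximal regions were listed separately only in replicates 1 and 2. The distal region, at 26020266 to 26020681, ranked 1929, 3399 and 2014, and its nearest TSS was that of lncRNA:CR43644, at 602 bp.

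E(spl)m7-HLH, a bHLH gene active in the proneural clusters from which sense organs arise, had a region at 26036475 to 26036890, 355 bp upstream of its TSS. Its signal was 269. It ranked 2512, 1217 and 941 in replicates 1, 2 and 3, with signals of 43.8, 110 and 117, so replicate 1 placed it lower than the others did. The other pooled region at this gene, 1796 bp upstream, had a pooled signal of 48.7 and was not retained.

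The 4 members without an optimal region differed from each other. E(spl)mbeta-HLH, which is active broadly in the wing disc and whose regulatory DNA serves as a reporter of Notch activity, had 7 regions in the pooled list, the most of any member. Its best had rank 6350 and a signal of 89.8, at 168 bp upstream of the TSS. In the single replicates its best region ranked 2654, 5119 and 3475, each within the 5246 highest. The replicate regions that overlap the best pooled region had summits spread over 434 bp, against 9 to 179 bp at the 9 optimal regions.

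E(spl)mgamma-HLH, which is active in neural stem cells, had a best rank of 10288, 13134 and 16013 in replicates 1, 2 and 3. For E(spl)m5-HLH these ranks were 13777, 20604 and 24638. E(spl)m4-BFM, which is active in proneural clusters, had no region in the pooled list or in replicates 1 and 2, and its single region in replicate 3 was at rank 29855 of 30000. These genes held no region among the 5246 highest of any replicate.

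The gap between optimal summits was widest around the last pair. No optimal summit lay in the 15.2 kb between the proximal summit upstream of E(spl)m3-HLH and the optimal summit upstream of E(spl)m7-HLH. This stretch contains E(spl)m3-HLH itself, E(spl)m4-BFM, E(spl)m5-HLH and E(spl)m6-BFM, a Bearded family gene that is not among the 10. E(spl)m6-BFM had ranks of 10000, 13232 and 6023. Over the 47.4 kb from 2 kb before the first member to 2 kb after the last, 9 optimal and 33 pooled summits were found. Of 2794 adjoining tiles of that length on the 5 large chromosome arms, 61 (2.18%) held at least 9 optimal summits, with a median of 1 and a maximum of 21.

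**Figure D2:**
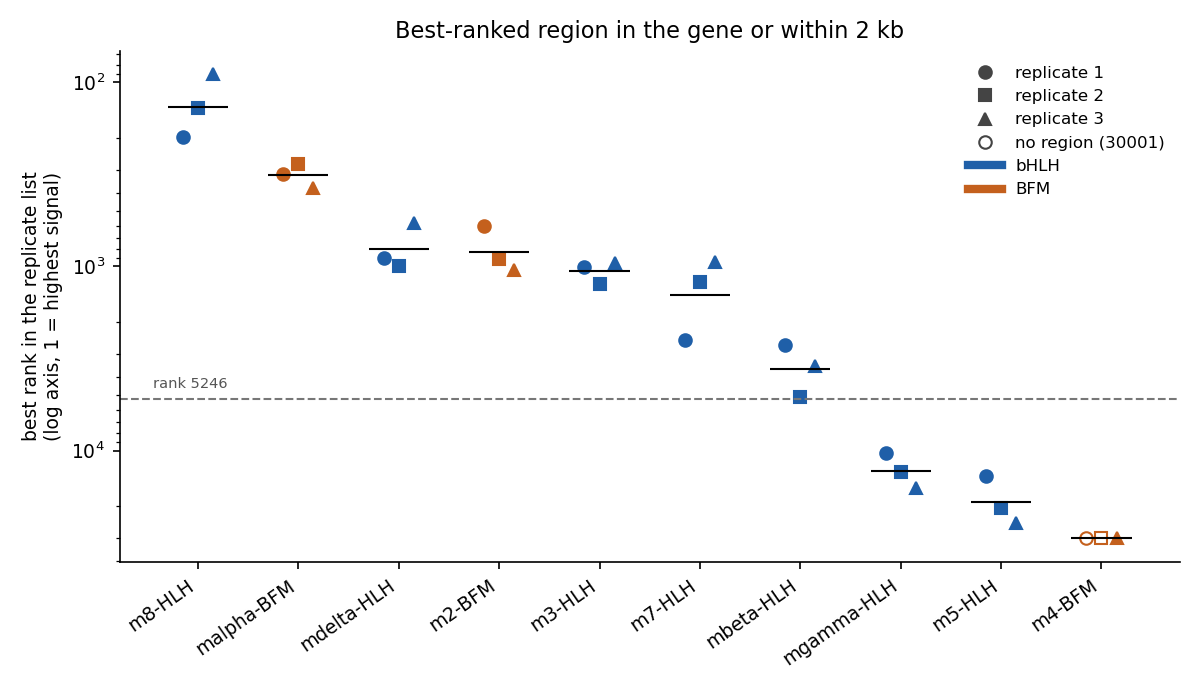
Best rank in each replicate list on a log axis, where 1 is the highest signal, for each member; circles, squares and triangles are replicates 1, 2 and 3, black lines the mean of log2 rank, and open symbols stand for no region. The dashed line marks rank 5246, above which 7 members sit in all 3 replicates.

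By the mean of log2 best rank over replicates, the order was E(spl)m8-HLH (7.08 ± 0.57, SD, n = 3), E(spl)malpha-BFM (8.32 ± 0.21), E(spl)mdelta-HLH (9.65 ± 0.41), E(spl)m2-BFM (9.70 ± 0.41), E(spl)m3-HLH (10.05 ± 0.20), E(spl)m7-HLH (10.47 ± 0.73), E(spl)mbeta-HLH (11.82 ± 0.48), E(spl)mgamma-HLH (13.66 ± 0.32), E(spl)m5-HLH (14.22 ± 0.43) and E(spl)m4-BFM. A lower value is a better rank, and a member with no region was given rank 30001. E(spl)mdelta-HLH, E(spl)m2-BFM, E(spl)m3-HLH and E(spl)m7-HLH had overlapping ranges. Neighbours in the order among them kept that order in only 1 or 2 of the 3 replicates. E(spl)mdelta-HLH nevertheless ranked better than E(spl)m3-HLH and E(spl)m7-HLH in every replicate. The ranges of E(spl)mgamma-HLH and E(spl)m5-HLH also overlapped, although E(spl)mgamma-HLH ranked better in 3 of 3 replicates, by 0.56 ± 0.12 on the log2 scale (SD, n = 3). The other neighbours in the order did not overlap, but with 3 replicates an exact sign-flip test, two-sided, cannot give a p below 0.25.

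Each of the 3 replicates had 7 members with a summit among its 5246 highest regions, and they were the same 7 each time, namely the 6 above and E(spl)mbeta-HLH. Over all protein-coding genes the shares were 29.9%, 30.5% and 31.5% in replicates 1, 2 and 3. All 9 optimal regions at the members overlapped a region among the 5246 highest of every replicate, against 66.1% of all optimal regions. These 9 all lie in the upper 50% of the optimal list by signal, whereas the 66.1% covers the whole list. No share was computed for optimal regions of similar signal. The optimal list was itself made from these replicate lists and is not independent of them. Median signals of the full lists were 14.6, 18.4 and 18.5 in replicates 1, 2 and 3. Signals are therefore compared only within a replicate, and the read depth behind them is unknown.

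The pooled list, made from the alignments of all 3 replicates, had a region at 9 of the 10 members, and at 59.0% of all protein-coding genes. The 28 distinct pooled regions at the members included the 9 optimal ones and 19 not retained. Among these 19, 11 had an overlapping region in every replicate. By the overlapping region of nearest summit, 1 of the 19 was among the 5246 highest in all 3 replicates, namely the region 168 bp upstream of E(spl)mbeta-HLH, and so were all 9 optimal regions. In replicate 1, however, the summit matched to that region lay 361 bp away. The same replicate 1 region was also the match of the pooled regions 399 and 625 bp upstream of E(spl)mbeta-HLH.

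The bHLH and BFM members were not separated by rank, and with 3 replicates the sign-flip test could not give a p below 0.25. An optimal region was found at 4 of 7 bHLH members and at 2 of 3 BFM members. The median best rank of the bHLH members was 2512, 1240 and 959 in replicates 1, 2 and 3, and that of the BFM members was 605, 908 and 1039. The BFM median thus ranked better in replicates 1 and 2 and the bHLH median in replicate 3. Each median is the rank of 1 gene. For BFM it was E(spl)m2-BFM, and for bHLH it was E(spl)m7-HLH in replicate 1 and E(spl)m3-HLH in replicates 2 and 3. The best-ranked member, E(spl)m8-HLH, was a bHLH gene and the worst, E(spl)m4-BFM, a BFM gene. The rank of E(spl)m8-HLH, however, came from the region in gro, which is nearer to gro than to that member. The difference in median log2 rank, bHLH minus BFM, was 0.80 ± 1.13 (SD, n = 3; exact sign-flip test, two-sided, p = 0.5). It was −1.90 with a window of 1 kb, −0.24 with 5 kb and −1.10 when each summit went only to its nearest gene of any kind. With the nearest protein-coding gene it was 3.31, and without E(spl)m8-HLH 1.46, both added after seeing the data. Its direction thus depended on how summits were assigned.

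Of the 9 optimal summits, 8 lay upstream of the member's TSS, at 5 members, and the other was the one in gro. The pairs of member and region not retained were divided between 11 upstream and 9 downstream. By all pooled summits, 4 members had them only upstream, 4 on both sides, and E(spl)m8-HLH only downstream. No summit of the pooled list, among 29 pairs of member and region, lay inside the body of a member. This holds for the pooled list only. The closest pooled summit was 11 bp upstream of E(spl)malpha-BFM, and its replicate 3 match lay 18 bp further along, inside the body. Summits in bodies were not counted in the replicate lists. Bodies make up 18.8% of the windows searched. Among protein-coding genes of at most 2 kb, 53.5% of 1551 optimal pairs were upstream, 37.3% downstream and 9.22% in the body, where bodies make up 22.3% of the windows. In the pooled list, 19 of the 29 pairs at the members were upstream (65.5%). Of 6011 pooled pairs at all protein-coding genes of at most 2 kb, members included, 49.8% were upstream and 10.3% in the body. These shares are descriptions with no test, since neighbouring genes share regions.

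**Figure D3:**
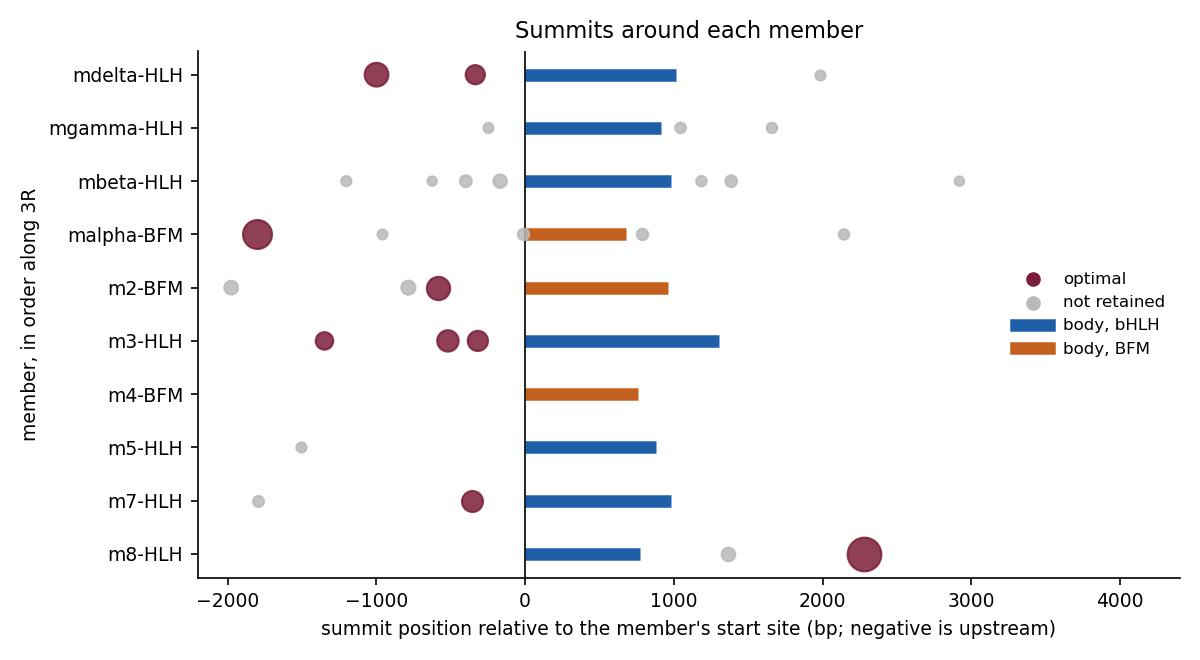
Summits of pooled regions at each member by distance from the member's start site in bp, negative upstream, with larger points for higher signal in the pooled list, dark points for optimal and grey points for not retained regions. Coloured bars are the gene bodies, which hold no summit; the closest, at E(spl)malpha-BFM, is 11 bp upstream of the start.

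Upstream summits were not all close to the start. In the optimal list they lay from 318 to 1802 bp from the member's TSS, and 5 of the 9 were within 500 bp of the TSS of some protein-coding gene. Of the 9, 6 lay outside any annotated gene. Optimal regions at the members were 122 to 416 bp wide, and 416 bp is the median of the optimal list. All 9 were in the upper 50% of the optimal list by signal, whose median is 169.

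The share of A and T within 25 bp of the 9 summits averaged 73.6% ± 6.87 (SD over 9 regions, which are not replicates), with a range of 60.8% to 82.4%. Over all 5246 optimal regions the mean was 65.2% (SD 11.5, range 21.6% to 94.1%), and over the whole 47.4 kb it was 55.3%. Neither this share nor the runs were computed for optimal regions of signal similar to that of the 9. At 300 bp on either side of the 9 summits the mean was 44.6%, and each of the 9 summits was richer in A and T than its own flanks. Over all optimal regions the mean at 300 bp was 55.3%, and 3937 of 5246 summits were richer than their flanks. The 19 regions at the members that were not retained averaged 52.0% at the summit and 54.0% at 300 bp, and 9 of the 19 exceeded their flanks. For the regions among the 5246 highest of single replicates, the mean at the members was 71.8%, 71.4% and 68.0% in replicates 1, 2 and 3 (70.4% ± 2.08, SD, n = 3). Of the printed windows, the proximal one of E(spl)m3-HLH had the highest share (82.4%) and the proximal one of E(spl)mdelta-HLH the lowest (60.8%), and the latter has no capital run within 25 bp of its middle base.

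**Figure D4:**
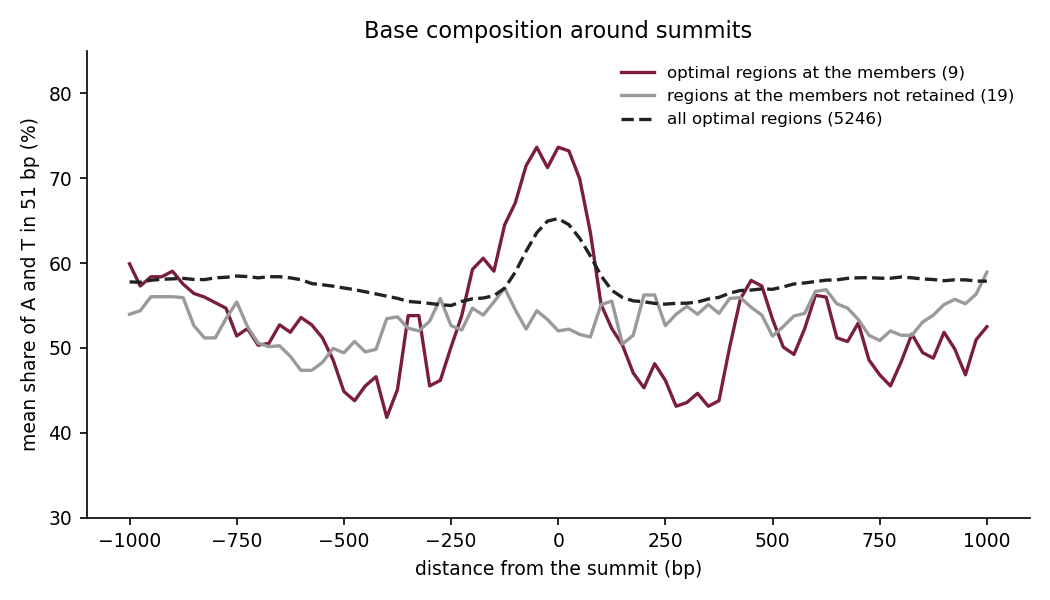
Mean share of A and T in 51 bp windows against the distance from the summit in bp, for the 9 optimal regions at the members, the 19 not retained and all 5246 optimal regions. The members' optimal regions reach 73.6% at the summit, above the 65.2% of all optimal regions, while those not retained stay at 52.0%.

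Words known for factors of this pathway were sought within 50 bp of each summit on both strands. The core of the Su(H) site was searched as GTGGGAA or GTGAGAA, and it was in 0 of the 9 optimal windows at the members, in 4 of the 19 not retained and in 2.00% of all optimal windows. The E-box CANNTG, the site class of proneural bHLH proteins, was in 3 of 9 and in 35.2% of all optimal windows. CACNAG, the N box of the E(spl) bHLH proteins, was in 0 of 9 and in 9.11% of all. The E-box CAGCTG was in 0 of 9 and in 3.62% of all. For the E-box CAGGTG the values were 0 of 9 and 1.89%, and for the E-box CACGTG they were 0 of 9 and 0.553%. GAGAGAG, the word of the GAGA factor, was in 0 of 9 and 2.15%. CANNTG includes the other E-boxes as special cases.

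A pair of words made only of A and T was also searched. TATAAA, the TATA box word, was in 4 of the 9 windows and in 19.9% of all optimal windows, in the pair at E(spl)mdelta-HLH, at E(spl)m2-BFM and in the proximal window of E(spl)m3-HLH. TAATTA, a homeodomain word, was in 3 of 9 and in 8.39% of all. It occurred at E(spl)m2-BFM and in the distal and proximal windows of E(spl)m3-HLH. With 9 windows of high A and T content, these counts are a description only.

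Over the 47.4 kb of the complex there were 45 matches to the Su(H) core, 0.950 per kb, and 0 of them lay within 100 bp of an optimal summit. The distance from an optimal summit to the nearest match ranged from 127 to 726 bp, with a median of 377 bp, and for the 19 regions not retained the median was 336 bp. Of the 10 members, 6 had a match within 500 bp upstream of the TSS, namely E(spl)mgamma-HLH, E(spl)mbeta-HLH, E(spl)malpha-BFM, E(spl)m4-BFM, E(spl)m5-HLH and E(spl)m8-HLH. These include all 4 members without an optimal region. The other 2 are E(spl)malpha-BFM, whose optimal summit was 1802 bp upstream, and E(spl)m8-HLH, whose only optimal summit was the one in gro. E(spl)mdelta-HLH, E(spl)m2-BFM, E(spl)m3-HLH and E(spl)m7-HLH, which had optimal summits 318 to 1349 bp upstream, had their nearest upstream match at 771, 962, 1044 and 641 bp. Within 2 kb upstream, all 10 members had a match, from 1 to 5 each, so the difference between members depends on the 500 bp limit. Neither the share of other genes with a match at these distances nor a rate over the genome was computed. These counts are therefore not shown to be particular to the complex. A match is a description and not a measured Su(H) site.

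Elsewhere in the Notch pathway, 17 of 36 listed genes held an optimal summit in the gene or within 2 kb, against 29.4% of all protein-coding genes. Of the 17, gro and Kaz-m1 did so through regions already described at the members. Gene length differs widely in this list, from 532 to 89273 bp, and longer genes have more sequence in which a summit can fall. Of the regulators of ligand activity, neur, which encodes the ligase that BFM proteins bind, had the best region of the list, at rank 120 with a signal of 759, and ranked 249, 135 and 87 in replicates 1, 2 and 3. The region in gro was close to it at rank 125, and ranked better than neur in replicate 1, at 199. In replicates 2 and 3 the gro region ranked just below, at 138 and 90. The ligase gene mib1 (rank 2958) and the ligand gene Ser (4295) also held optimal regions. The receptor gene N had its best at rank 648, within its body, and the glycosyltransferase gene fng, which modifies the receptor, at rank 719. Genes of receptor cleavage that held one were kuz (905) and aph-1 (945), and dx, which regulates the receptor in endosomes, was at 1718.

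Among nuclear partners, mam, the Notch coactivator, held 10 optimal regions over 69154 bp with a best rank of 364, and gro held the region already described. Su(H) held no optimal region, and its best ranks were 17203, 12141 and 18819. The Notch inhibitor numb (379) and bib, a membrane channel gene (453), held optimal regions. Among other helix-loop-helix genes, dpn (609), emc (2408), hry (3560) and da (3990) held one. The protease inhibitor gene Kaz-m1 held one through the region upstream of E(spl)m2-BFM. The proneural genes ac, sc, l(1)sc, ase, ato and amos held none. The Bearded family genes of 3L, namely Brd, Tom, Ocho and BobA, also held none. H, Psn, Nct, pen-2, O-fut1, Su(dx), Hey and E(spl)m6-BFM completed the genes without one.

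CG7368, the tagged gene itself, held 5 optimal regions, the best at rank 1478 with a signal of 246, and ranked 1393, 2027 and 1164 in replicates 1, 2 and 3. The genes outside the complex whose best ranks were most like the median of the members (1593, 1228 and 998 in replicates 1, 2 and 3) were CG33116, dyl, Amnionless, CG3625 and spir. Likeness was the sum over 3 replicates of the absolute difference in log2 rank, and was 0.22 for CG33116 and 0.33 for spir. CG33116 ranked 1543, 1209 and 1105. Amnionless and CG3625 overlap and shared the same best region, with ranks of 1565, 1084 and 975.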

How the data were processed

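Peak lists of 3 biological replicates were used, in dm6 coordinates; chromatin was sheared to 200 to 800 bp, per the labels. Per the file descriptions deposited with the samples, each replicate list of 30000 regions was made from that replicate's alignments and a control alignment, the pooled list from all 3, and the optimal list of 5246 regions by the irreproducible discovery rate. No peak caller or aligner is given in the sources used here. The signal of each region is the authors' deposited value, with no formula given, and was used for ranking within a list. The deposited −log10 q-value was used only for an alternative ranking. Lists in dm3 coordinates were not used, since no position was converted. Deposited lists give no reads, so the depth and counting error are unknown.

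Starts were made 1-based. Genes came from Ensembl release 115 without transposable elements, and all dm6 regions lie inside the chromosomes of the RefSeq genome (Release 6). A region belonged to a gene when its summit lay in the gene or within 2 kb. Ranks run from the highest signal. Replicate regions were matched by overlap of at least 1 bp, and ranks are those of the overlapping region with the nearest summit. The replicate is the unit of the exact sign-flip test, and labels do not say whether replicates came from separate collections of animals. Members and lists were chosen with earlier results of these data known. Of 37 listed Notch genes 36 were matched by symbol or synonym, and the other is not analysed here. Named genes are the members, the listed pathway genes, genes that hold a summit and the 5 genes of most similar ranks. Functions were tested on simulated data. Python 3.11.15, numpy 2.4.6, pandas 2.3.3 and matplotlib 3.10.9 were used.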

Additional observations from a re-analysis of the deposited data

How the results depend on the processing

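Over 7 results, 37 alternative values were computed, of which 3 reversed and 2 moved. The other 32 were counts within 1.5 times the main count, a share within the replicate spread, or family differences of the same direction, whatever their size. Some of these 32 were fixed in advance by the main value, as given below. The 6 members with an optimal summit became 3 when each summit went only to the nearest gene of any kind, and 4 among protein-coding genes, an alternative added after seeing the data. They were 4 within 1 kb and 9 within 5 kb, where E(spl)m5-HLH was the member without one. Without the region in gro, also added later, 5 remained in the count. The bHLH minus BFM difference of 0.80 in median log2 rank reversed to −1.90 within 1 kb, −0.24 within 5 kb and −1.10 with the nearest gene. Leaving out 1 replicate at a time gave 0.17 to 1.25, the lowest without replicate 1. It was 3.31 with the nearest protein-coding gene and 1.46 without E(spl)m8-HLH, both added after seeing the data; the cause of these shifts was not tested. The A and T share of 73.6% was 67.7% within 10 bp of the summit. All 9 optimal regions were already among the highest of every replicate. Leaving out 1 replicate, or using the whole replicate lists, therefore could not change that count. With a 50% reciprocal overlap the count was 7. The Su(H) core count of 0 likewise could not rise with a window of 25 bp or with GTGGGAA alone. No paired analysis was possible because the series has a single group. Depth is unknown, so the absence of a region at E(spl)m4-BFM in a list is not the absence of binding.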
